A study of Rattus norvegicus with 115 samples.

Results

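The question here was which genes differed between brain tumours given a synchrotron broad beam and unirradiated tumours 48 h after irradiation. The arrays were those titled as BB-treated tumour at 48 h (4 rats, numbered 50 to 53) and untreated tumour at 48 h (4 rats, numbered 15 to 18), 8 of the 115 arrays in the series. Both groups were Fisher rats injected in the right caudate nucleus with 9L cells, a rat line that the labels call glioblastoma. The BB rats were irradiated 10 days after the injection, and the untreated rats received no irradiation. Microbeam radiation therapy (MRT), which splits the beam into peaks of 400 Gy separated by valleys of 18 Gy, was given to other rats of the series, and the broad beam dose was slightly below this valley dose. Whole tumours were resected, so every value is a mixture of 9L cells, host brain, vessels and leukocytes. Each array is a different rat, per the labels. All 35 BB arrays of the series carry their own set of labels and processing notes, so an effect of the broad beam and a difference between the label sets cannot be told apart in a BB against untreated comparison.

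Ionising radiation breaks DNA, and the breaks activate the transcription factor p53. Through Cdkn1a, which encodes the cyclin-dependent kinase inhibitor p21, p53 holds cells before replication or division. Through Mdm2, the ligase that marks p53 for degradation, it limits its own activity, and through genes such as Bbc3 and Fas it can start apoptosis. Irradiated tumours also draw in monocytes, which become macrophages that clear dead cells and release proteases and growth factors.

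Levels are log2 of the deposited array intensity, differences are log2 of BB minus untreated with their standard error, and a gene was called at an adjusted p under 0.05 in the limma fit of 14217 genes. Tumour identity was checked on Cdkn2a, which lay between 10.17 and 11.78 on the 8 tumour arrays and between 4.17 and 6.30 on the 7 contralateral arrays of the same groups. Mki67, a proliferation marker, lay between 10.87 and 12.0 in tumour and between 4.64 and 6.13 contralaterally. The array medians did not differ beyond their spread (untreated 7.04 ± 0.11 and BB 7.07 ± 0.04, SD, n = 4 each; exact permutation test, two-sided p = 0.686). The 3′ minus 5′ difference of the Gapdh control probe sets, a measure of RNA integrity, was 0.13 ± 0.06 in untreated and 0.83 ± 1.01 in BB tumours (SD, n = 4 each; exact permutation p = 0.0286, the smallest that 4 against 4 allows). BB rat 53 stood at 2.35 and the other 3 BB rats between 0.22 and 0.39, while the tumour arrays of all other groups lay between -0.19 and 0.84. The actin control moved in the same direction (1.52 ± 0.18 and 2.99 ± 1.03, SD, n = 4 each; exact permutation p = 0.0286), and the hexokinase control gave p = 0.971.

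At 48 h, 369 genes were called, 195 higher and 174 lower after the broad beam, which is 2.6% of the genes tested. The median difference over all genes was 0.0354, 54.2% of genes had a positive difference and 19.4% an unadjusted p under 0.05, the shares against which such counts of list members can be read. Of the called genes, 349 had groups that did not overlap, against 16.8% of all genes tested. Rises were larger than falls, with a median difference of 0.80 among called rises and -0.57 among called falls, and 67 rises but only 8 falls were past 1 log2. The count rested on single arrays: it was 75 without untreated rat 16, 119 without BB rat 51, 135 without untreated rat 17, and between 171 and 193 without untreated rat 18 or BB rats 50, 52 or 53. With the Gapdh difference as a covariate 128 genes were called, 119 of them among the 369. The genes called in the full fit and in all 8 fits without 1 array numbered 42, with 24 rises and 18 falls, and these are termed stable to leaving out any single array.

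Falls were mostly in genes of low intensity. The untreated level had a median of 5.71 among called falls, 7.85 among called rises and 8.34 over all genes, and 118 of 174 falls but 37 of 195 rises lay under the lower quartile of 6.38. Most of the 18 falls stable to leaving out any single array also lay under that quartile. All genes under that quartile had a median difference of -0.12 and those above it 0.09. The tenth percentile of the arrays was also lower in BB tumours, 4.09 on all 4 arrays against 4.19 ± 0.04 (SD, n = 4; exact permutation p = 0.0286). Over all 31042 probe sets, without the choice of 1 per gene, 3.59% were called. Of the called genes 84 had further probe sets, and another of these was called in the same direction for 8 and in the opposite direction for 1. When the dimmest 30% of genes were left out before the fit, 125 rises and 28 falls were called.

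**Figure D1:**
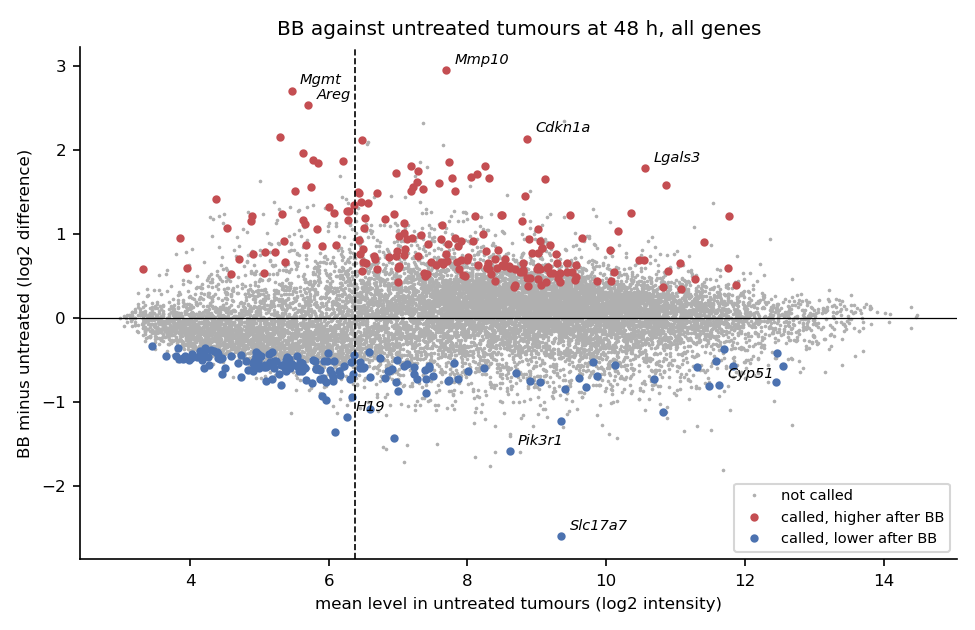
Log2 difference of BB minus untreated tumours at 48 h (vertical axis) against the mean log2 intensity of the 4 untreated tumours (horizontal axis), 1 point per gene for 14217 genes. The 195 called rises are red, the 174 called falls are blue, and the dashed line marks the lower quartile of 6.38. Most blue points lie left of the line and most red points right of it.

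The p53 targets that changed were all higher. Of 29 measured p53 targets, 6 rose and 0 fell, where 1.37% of all genes tested were called higher and 1.22% lower. The 6 were Cdkn1a, the nuclease Aen, the long noncoding RNA Pvt1, the stress regulator Sesn2, Mdm2 and the ubiquitin ligase Rchy1. The median over the 29 targets was 0.34, and 12 had an unadjusted p under 0.05, against 19.4% of all genes. Between 4 (without untreated rat 17) and 6 members were called when single arrays were left out, and 5 with the Gapdh covariate.

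Cdkn1a had the smallest p of all genes. Its level was 8.91, 9.33, 8.36 and 8.83 in untreated rats 15 to 18 and 10.83, 10.87, 10.98 and 11.32 in BB rats 50 to 53. Every BB tumour was above every untreated tumour, by more than 1 log2. The difference was 2.14 ± 0.25, or 4.41-fold (adjusted p = 4.66e-07), and it was stable to leaving out any single array. Aen, an exonuclease induced by p53 in apoptosis, was at 7.98, 7.71, 7.47 and 8.11 in untreated and 8.64, 8.73, 8.79 and 8.94 in BB tumours. The groups did not overlap, and the difference was 0.96 ± 0.16 (adjusted p = 0.000565), also stable. A dimmer probe set of Aen stood at 0.55 ± 0.205 and was not called (adjusted p = 0.104 over all probe sets).

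The promoters of these 2 genes are shown because both held a match to the p53 consensus decamer, the unit that a full p53 site contains as a pair. Each line gives 300 bases of RefSeq sequence on GRCr8, of which 250 lie before the gene's start, with the match in capitals. The Cdkn1a window is chr20:7150682-7150981 on the plus strand with the match at -201 to -192 from the start, and the Aen window is chr1:142224283-142224582 on the plus strand with the match at -30 to -21.
Cdkn1a: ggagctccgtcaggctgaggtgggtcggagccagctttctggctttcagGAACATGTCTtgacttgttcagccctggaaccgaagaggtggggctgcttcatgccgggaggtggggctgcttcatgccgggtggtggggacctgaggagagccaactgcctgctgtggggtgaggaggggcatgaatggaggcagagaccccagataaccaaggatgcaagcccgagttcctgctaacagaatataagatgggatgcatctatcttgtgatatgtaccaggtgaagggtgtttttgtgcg
Aen: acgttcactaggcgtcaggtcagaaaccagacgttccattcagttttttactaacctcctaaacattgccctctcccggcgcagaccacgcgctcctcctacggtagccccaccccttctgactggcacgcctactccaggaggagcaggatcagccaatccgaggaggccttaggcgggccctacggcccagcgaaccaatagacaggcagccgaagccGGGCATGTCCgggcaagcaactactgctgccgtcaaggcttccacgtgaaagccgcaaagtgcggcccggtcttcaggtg
A match was searched on both strands, and 7.98% of the 33469 windows of this length in the table held at least 1. The windows of Sesn2, Mdm2 and Rchy1 held no match, which says only that these letters are not in those windows, and no window was searched for Pvt1.

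Among the other p53 targets, Pvt1, a noncoding RNA whose locus p53 induces, rose from 8.87, 8.59, 8.11 and 8.46 to 9.45, 9.95, 9.69 and 9.86 (1.23 ± 0.24, adjusted p = 0.00451). Sesn2, which restrains growth signalling under stress, was at 8.88, 9.25, 8.34 and 8.66 untreated and 9.91, 10.16, 10.01 and 9.69 after the broad beam (1.16 ± 0.25, adjusted p = 0.00791). Both sets of values were free of overlap, and both calls were stable. A dimmer probe set of Sesn2 stood at 0.40 ± 0.13 and was not called (adjusted p = 0.0718 over all probe sets). Mdm2 rose by 0.70 ± 0.16 (adjusted p = 0.0108; 0.0631 without untreated rat 17), and its other 2 probe sets stood at 0.68 ± 0.26 and -0.10 ± 0.43 and were not called. Rchy1, which ubiquitinates p53, rose by 0.35 ± 0.10 (adjusted p = 0.045) and was called in 1 of the 8 fits without an array, that without untreated rat 18. By role as grouped here, 2 of 8 arrest genes, 3 of 6 genes placed under feedback on p53, 1 of 7 apoptosis genes and 0 of 4 repair and nucleotide genes were called. The 3 feedback calls were Mdm2, Rchy1 and Pvt1, and no value here shows that Pvt1 acts on p53. The apoptosis activators Bbc3 (0.54 ± 0.18, adjusted p = 0.0858) and Fas (0.61 ± 0.26, adjusted p = 0.178) did not pass. The secreted stress factor Gdf15 stood at 0.98 ± 0.41 (adjusted p = 0.163) and the Akt inhibitor Phlda3 at 0.86 ± 0.27 (adjusted p = 0.0636). Zmat3, Ddb2, Xpc, Sesn1 and Plk3, which are also p53 targets, differed by between -0.04 and 0.12.

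**Figure D2:**
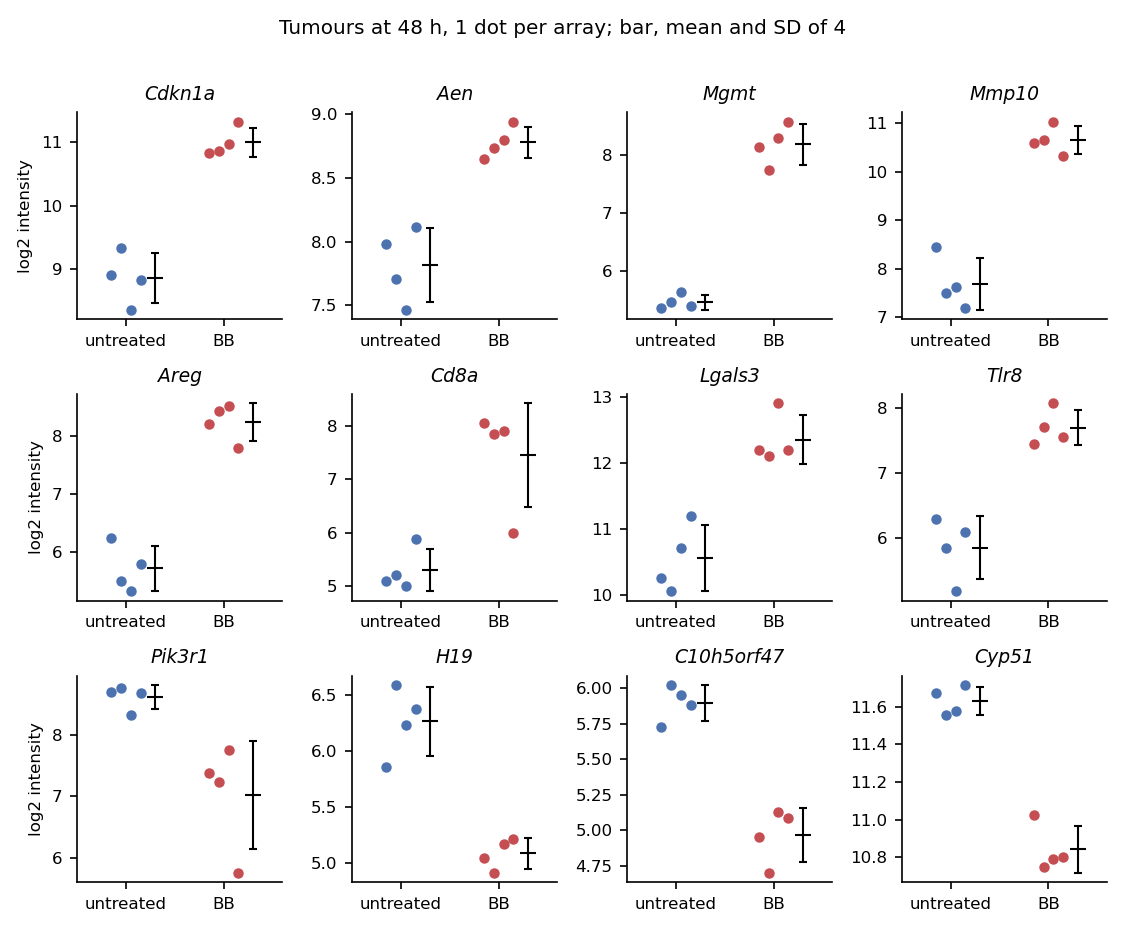
Log2 intensity of 12 genes on each array, untreated tumours (rats 15 to 18) and BB tumours (rats 50 to 53) at 48 h, 1 dot per rat with the mean and SD of 4. Cdkn1a, Aen, Mgmt, Mmp10 and Areg show BB dots above all untreated dots; the lowest BB dot of Cd8a, rat 53, is close to the highest untreated dot, and the lowest of Pik3r1 is the same rat.

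The repair gene with the largest rise was Mgmt, which removes alkyl groups from guanine. Untreated tumours were at 5.36, 5.46, 5.64 and 5.39 and BB tumours at 8.12, 7.73, 8.28 and 8.57. The groups were separated by more than 2 log2, and the difference of 2.71 ± 0.41 was 6.56-fold (adjusted p = 0.000134), stable to leaving out any single array and called with the Gapdh covariate (adjusted p = 0.00535). Nhej1, a factor of non-homologous end joining, rose by 0.87 ± 0.20 (adjusted p = 0.012; 0.065 without untreated rat 16). These were 2 of 29 measured repair enzymes, and no other member had an unadjusted p under 0.05 (median 0.14). Outside the list, and chosen after their values were seen, the alkylation repair dioxygenase Alkbh3 rose by 0.54 ± 0.11 (adjusted p = 0.00533) and the mitochondrial polymerase subunit Polg2 by 1.01 ± 0.18 (adjusted p = 0.00159), both stable. Nqo1, a quinone reductase induced by Nrf2, rose by 0.78 ± 0.15 (adjusted p = 0.00375, stable), and it was the 1 call among 17 Nrf2 and xenobiotic genes. Of these 17, 7 had an unadjusted p under 0.05 and 9 a positive difference (median 0.02). Ephx1 (1.62) and Hmox1 (1.24) had larger differences than Nqo1 and were not called, though Ephx1 had an adjusted p of 0.0473 over all probe sets.

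Proteases of the matrix and plasminogen systems gave the largest rise of all. Mmp10, the metalloproteinase stromelysin-2, was at 8.45, 7.51, 7.62 and 7.20 in untreated and 10.60, 10.65, 11.03 and 10.32 in BB tumours. The lowest BB tumour was well above untreated rat 15, the highest of its group. The difference was 2.96 ± 0.64, or 7.75-fold (adjusted p = 0.0087, stable). Plau, the urokinase that activates plasminogen, rose from 7.38, 6.89, 7.19 and 7.26 to 8.54, 8.69, 8.96 and 8.60, again with no overlap (1.52 ± 0.30, 2.86-fold, adjusted p = 0.00467, stable), though a dimmer probe set of Plau stood at 0.38 ± 0.38 and was not called. These 2 were the calls among 23 measured proteases and inhibitors, of which 20 had a positive difference (median 0.65) and 11 an unadjusted p under 0.05. The collagenase Mmp13 reached 2.36 ± 0.75 and did not pass (adjusted p = 0.0704; this gene was chosen after its values were seen), and neither did the gelatinase Mmp9 at 1.45 ± 0.44 (adjusted p = 0.0619). None of 24 collagen and other matrix genes was called by limma, and none had an unadjusted p under 0.05.

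Of the ligands of the EGF receptor, Areg rose. The amphiregulin gene was at 6.23, 5.49, 5.32 and 5.78 in untreated and 8.21, 8.43, 8.53 and 7.79 in BB tumours, with more than 1 log2 between the groups. The difference was 2.54 ± 0.61, or 5.81-fold (adjusted p = 0.0164), and the call was lost without BB rat 51, untreated rat 16 or untreated rat 17, with an adjusted p of at most 0.0571. It was the 1 call among 18 ligands, receptors and feedback genes. Hbegf, another ligand, stood at 1.11 ± 0.44 (adjusted p = 0.143), Dusp5, a phosphatase of the ERK kinases, at 1.00 ± 0.31 (adjusted p = 0.0641), and the list median was -0.17.

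The macrophage genes that changed were all higher, but their calls depended on which arrays entered the fit. Of 25 measured macrophage and monocyte markers 8 were called, all higher: Cd14, Cd68, Mrc1, Ms4a7, Lgals3, Gpnmb, Clec4a3 and Cd300c2 (listed in full after their values were seen). The median was 1.03, 22 of 25 differences were positive, and 14 members had BB tumours above all untreated tumours, against 11.2% of all genes tested. The mean over the list was 8.25, 7.94, 8.04 and 8.54 in untreated rats 15 to 18 and 9.00, 9.07, 9.61 and 8.92 in BB rats 50 to 53, so the groups did not overlap. Leaving out untreated rat 16, the lowest of its group on this mean, left 0 of the 8 called (median 0.93). The other single-array fits called between 2 (without untreated rat 17, or without BB rat 52) and 6, and 3 without BB rat 51. With the Gapdh covariate 3 were called, at a median of 1.14. In these bulk tissues more cells of a type and more RNA per cell cannot be told apart.

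Lgals3, the galectin of phagocytes, was at 10.26, 10.07, 10.71 and 11.20 in untreated and 12.19, 12.10, 12.89 and 12.20 in BB tumours (1.79 ± 0.39, adjusted p = 0.0101; 0.0513 without untreated rat 16). Cd14, the lipopolysaccharide co-receptor of monocytes, was at 8.69, 7.83, 7.89 and 8.61 and then 10.06, 10.13, 10.55 and 9.55 (1.82 ± 0.41, adjusted p = 0.012; 0.0555 without untreated rat 16). Neither gene had overlapping groups, and BB rat 52 was highest for both. Gpnmb (1.59 ± 0.40) and Cd68 (1.67 ± 0.45), both of the lysosome, and Itgax, the integrin CD11c (1.88 ± 0.39, adjusted p = 0.00556; 0.0511 without untreated rat 16), also rose. Together with Lgals3 these were the 4 calls among 21 lysosome and phagocyte genes, all 21 of which had a positive difference, and the 4 calls became 0 without untreated rat 16. Lgals3, Gpnmb and Cd68 are also among the macrophage calls above, so the calls of the 2 lists are not separate results. Tlr8, an endosomal receptor for single-stranded RNA, was at 6.29, 5.83, 5.17 and 6.09 and rose to 7.45, 7.71, 8.07 and 7.55 (1.85 ± 0.40, adjusted p = 0.00796), and this call was stable.

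Markers of resident microglia were mostly lower, without a call. The mean over the list was 9.14, 9.16, 9.12 and 9.45 in untreated rats 15 to 18 and 8.69, 8.70, 8.82 and 8.89 in BB rats 50 to 53. Every BB tumour was thus below every untreated tumour on this mean. None of 8 microglia genes was called by limma, 3 had an unadjusted p under 0.05, 1 had a positive difference, and the median was -0.50. P2ry12, the purinergic receptor of microglia, was at 8.99, 9.08, 9.82 and 9.83 in untreated and 8.15, 7.75, 8.17 and 9.07 in BB tumours (-1.14 ± 0.50, adjusted p = 0.188), with BB rat 53 inside the untreated range. Its other probe set fell by 1.08 ± 0.33 (adjusted p = 0.0497 over all probe sets). The macrophage receptors Csf1r and Cd163 had differences of -0.37 and -0.24 and were not called. Neither the neutrophil list (10 genes, 2 with an unadjusted p under 0.05) nor the B cell list (9 genes, 0 higher, 1 lower) gave a called rise.

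Cd8a, the co-receptor of cytotoxic T cells, was the 1 call among 30 T and NK cell genes. It was at 5.09, 5.21, 5.00 and 5.88 in untreated and 8.06, 7.86, 7.91 and 6.00 in BB tumours. BB rats 50 to 52 lay together, while rat 53 was just above untreated rat 18. The difference was 2.16 ± 0.50 (4.47-fold, adjusted p = 0.0123), and the call was lost without BB rat 50 or BB rat 51 (adjusted p of at most 0.0516). Of its other 2 probe sets 1 rose by 2.53 ± 0.56 and 1 stood at 0.41 ± 0.33, not called. Its partner chain Cd8b stood at 0.90 ± 0.41 (adjusted p = 0.209), and the T cell receptor chains Cd3e (0.57 ± 0.50), Cd3d (0.90 ± 0.65) and Cd3g (0.84 ± 0.61) and the killing genes Prf1 (0.08 ± 0.47) and Gzmb (0.67 ± 0.66) did not pass. The list median was 0.25, and 3 of 30 members had an unadjusted p under 0.05.

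Interferon and antigen presentation genes were mostly higher without being called. The mean over the interferon list was 8.25, 8.00, 7.68 and 8.01 in untreated and 8.21, 8.26, 9.11 and 7.97 in BB tumours. These groups overlapped, and BB rat 52 was highest by far. Of 32 interferon response genes 27 had a positive difference (median 0.36), 1 rose and 1 fell. The riser was Oasl, related to the RNA-sensing oligoadenylate synthetases (7.42, 7.07, 6.95 and 7.31 against 8.72, 8.85, 9.80 and 8.65; 1.82 ± 0.44, adjusted p = 0.0157), and it was lost without BB rat 52, untreated rat 16 or untreated rat 17 (adjusted p of at most 0.0748). Ifit1 fell by 0.73 ± 0.16 (adjusted p = 0.00859; 0.0526 without untreated rat 16) at a low level, between 5.04 and 6.19. Of 21 antigen presentation genes 20 had a positive difference and 9 had BB tumours above all untreated tumours, against 11.2% of all genes tested (median 0.59), but limma called 0, and 7 had an unadjusted p under 0.05. Ciita, the master activator of class II genes, stood at 1.31 ± 0.46 (adjusted p = 0.0948).

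Among 34 cytokine and adhesion genes 2 rose and 1 fell. Of the 34, 17 had a positive difference (median 0.04), and 15 had an unadjusted p under 0.05, against 19.4% of all genes. In 15 the groups did not overlap, in either direction, against 16.8% of all genes tested. The monocyte chemoattractant Ccl2 rose from 9.30, 8.99, 8.64 and 9.55 to 10.86, 10.77, 11.31 and 10.19 (1.66 ± 0.47, adjusted p = 0.0411), with no overlap, but it was called in only 1 of the 8 fits without an array, that without BB rat 53. Il10, an anti-inflammatory cytokine, rose by 1.42 ± 0.39 (adjusted p = 0.0369), with BB rat 53, at 4.58, inside the untreated range of 4.00 to 4.70, and was called in 2 of 8. The inducible nitric oxide synthase Nos2 fell by 0.59 ± 0.14 (adjusted p = 0.0157), and the call was lost without BB rat 50 or untreated rat 16 (adjusted p of at most 0.065).

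Genes of cell division gave no call at 48 h. On the probe set chosen for each gene, none of 27 mitosis genes was called by limma, and none had an unadjusted p under 0.05. A dimmer probe set of Cdc20 stood at 1.33 ± 0.40 (adjusted p = 0.0473 over all probe sets), where the chosen one stood at 0.38 ± 0.50. The median was 0.15, and -0.08 without untreated rat 17, the array lowest on this list. Mki67 was at 12.00, 11.91, 10.87 and 11.35 in untreated and 11.31, 11.80, 11.66 and 11.05 in BB tumours (-0.08 ± 0.53), so the groups overlapped. Cdk1 (0.04 ± 0.44), Top2a (-0.44 ± 0.50), Ccnb1 (0.28 ± 0.44) and Plk1 (0.52 ± 0.39), kinases, a topoisomerase and a cyclin of mitosis, did not pass either. Over the 27 genes the 95% intervals of the difference ran from -1.45 to 1.53. Of 25 replication genes limma called 0, and 1 had an unadjusted p under 0.05.

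The sterol synthesis genes that changed were all lower. Of 21 measured genes 3 fell and 0 rose, 19 had a negative difference, and the median was -0.49. The 3 were Cyp51, which demethylates lanosterol, and Msmo1 and Nsdhl, which act on the next sterol intermediates. Cyp51 was at 11.67, 11.56, 11.58 and 11.71 in untreated and 11.03, 10.75, 10.79 and 10.80 in BB tumours. The groups did not overlap, each with little spread, and the difference of -0.79 ± 0.16 (1.73-fold lower, adjusted p = 0.00556) was stable; its dimmer probe set stood at -0.44 ± 0.17 and was not called. Msmo1 fell by 0.58 ± 0.15 (adjusted p = 0.0307) and Nsdhl by 0.52 ± 0.14 (adjusted p = 0.0333), each called in 2 of the 8 fits without an array, and Nsdhl groups overlapped. Farther up the pathway, Acat2 (-0.84 ± 0.25, adjusted p = 0.053) and Fdps (-0.64 ± 0.21, adjusted p = 0.0825) and, among regulators, the sensor Insig1 (-0.77 ± 0.25, adjusted p = 0.072) did not pass. By role, 0 of 7 mevalonate genes, 3 of 9 sterol genes and 0 of 5 regulators were called. The count was 1 with the Gapdh covariate and 1 without untreated rats 15, 16 or 18 or BB rats 51, 52 or 53. The motif CCAAT, bound by the NF-Y factor that acts with sterol regulators, was found on either strand 0 times in the Cyp51 window, 3 times in that of Msmo1 and 5 times in that of Nsdhl, and 37.5% of all windows held it.

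**Figure D3:**
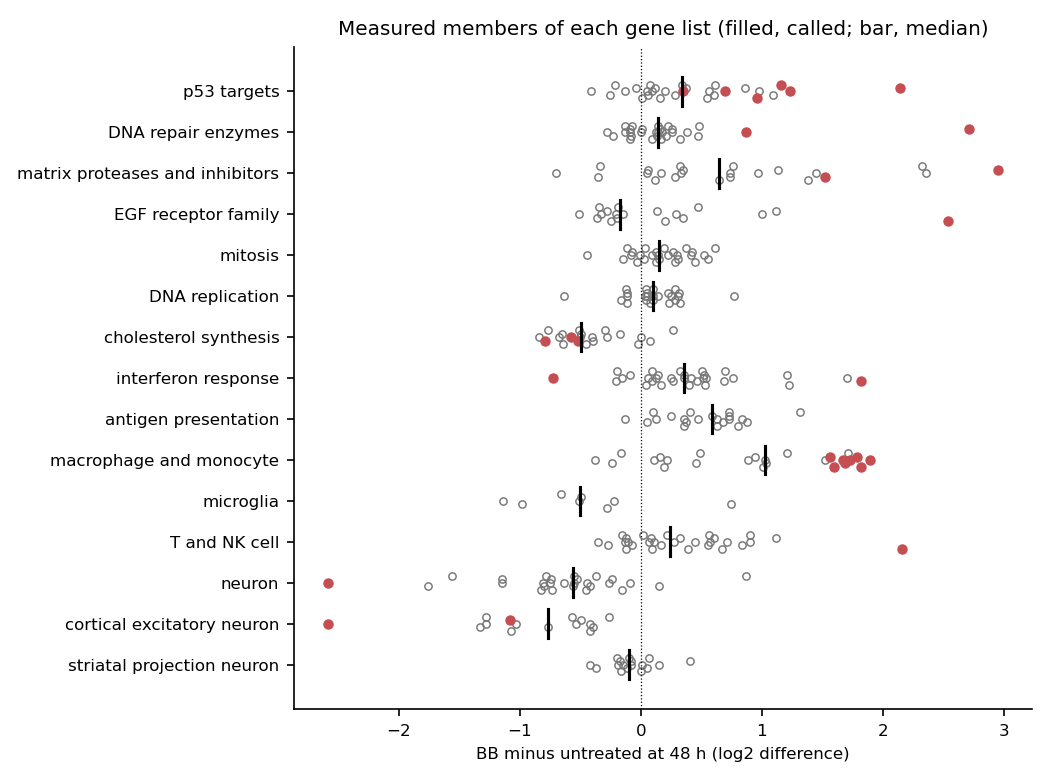
Log2 difference of BB minus untreated tumours at 48 h for each measured member of 15 gene lists, filled where called, with a bar at the list median. Macrophage and p53 members lie mostly right of 0, with 8 and 6 filled points, cholesterol synthesis members mostly left with 3, and mitosis members around 0 with none filled.

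Falls past 1 log2 were few. The imprinted noncoding RNA H19 fell from 5.86, 6.58, 6.23 and 6.38 to 5.04, 4.91, 5.17 and 5.21 (-1.18 ± 0.23, 2.26-fold lower, adjusted p = 0.00451), with no overlap, and was stable. C10h5orf47, an uncharacterised reading frame, was at 5.73, 6.02, 5.95 and 5.88 and fell to 4.95, 4.70, 5.13 and 5.09 (-0.93 ± 0.15, adjusted p = 0.000448, stable). Both genes lay under the lower quartile of intensity in both groups on average. In contralateral brain at 48 h both were also called lower after the broad beam. There H19 stood at -0.68 ± 0.18 (adjusted p = 0.011) and C10h5orf47 at -0.37 ± 0.13 (adjusted p = 0.0375). Pik3r1, the regulatory subunit of phosphoinositide 3-kinase, fell from 8.69, 8.75, 8.32 and 8.67 to 7.38, 7.23, 7.75 and 5.75 (-1.58 ± 0.35, 2.99-fold lower, adjusted p = 0.0103). Its groups did not overlap either, but BB rat 53, the array with the largest Gapdh difference, was lowest by far. Without that array the adjusted p was 0.069, and with the Gapdh covariate it was 0.11. Glg1, a Golgi glycoprotein, was also lowest in BB rat 53, with BB tumours at 8.04, 8.31, 8.56 and 7.59 (-1.22 ± 0.27, adjusted p = 0.0116; 0.053 without BB rat 53 and 0.119 with the Gapdh covariate). The part of RNA integrity in these falls was not tested beyond those fits.

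Neuronal genes, from host brain in the samples, varied within both groups. The mean of 27 neuron markers was 9.49, 9.62, 10.43 and 10.47 in untreated rats 15 to 18 and 9.95, 8.64, 8.74 and 10.02 in BB rats 50 to 53, so the groups overlapped (median difference -0.56, 1 of 27 lower). The called neuron gene was Slc17a7, the vesicular glutamate transporter of cortical neurons, at 8.68, 9.38, 9.56 and 9.79 against 8.22, 6.52, 5.39 and 6.91 (-2.59 ± 0.76, 6.02-fold lower, adjusted p = 0.0494), and it was called in only 1 of the 8 fits without an array, that without BB rat 50. A dimmer probe set of Slc17a7 stood at -0.86 ± 0.37 and was not called. Cortical markers were lower, with 15 of 15 negative differences (median -0.77, 2 of 15 called). Their group means overlapped, since BB rat 50, at 8.57, lay inside the untreated range of 8.13 to 9.00. The other cortical call was the proline transporter Slc6a7 (-1.08 ± 0.24, adjusted p = 0.0101, stable; 0.0638 with the Gapdh covariate). Striatal markers, from the site of injection, spread most: their mean was 7.52, 9.38, 11.29 and 10.48 in untreated and 8.06, 9.38, 10.13 and 10.77 in BB tumours, and limma called 0 of 17, with 0 at an unadjusted p under 0.05. A fit that also held the neuron mean as a term called 449 genes, 316 of them among the 369, and Cdkn1a, Mgmt, Aen, Mmp10 and Cyp51 kept their calls.

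Against MRT tumours of the same time, 0% of genes were called by limma, 515 had an unadjusted p under 0.05, and the smallest adjusted p was 0.686. The 8 MRT tumours differed from the same untreated tumours in 334 genes (2.35% of those tested), and since both comparisons share the untreated arrays their values are given side by side only. Cdkn1a stood at 2.14 ± 0.25 after BB and 2.28 ± 0.22 after MRT, Mgmt at 2.71 ± 0.41 and 3.13 ± 0.35, Mmp10 at 2.96 ± 0.64 and 2.52 ± 0.55, and Cyp51 at -0.79 ± 0.16 and -0.59 ± 0.14. BB minus MRT itself had a 95% interval of -0.58 to 0.30 for Cdkn1a, -1.13 to 0.29 for Mgmt, -0.67 to 1.54 for Mmp10 and -0.48 to 0.08 for Cyp51. So a difference of 1 log2 lies inside the intervals of Mgmt and Mmp10. Over the called genes the interval held 0 for 165 of 195 rises and 117 of 174 falls. These genes were picked on the same BB arrays, which by itself moves their intervals away from 0, so these counts are descriptions. The 515 genes above are the matching count over all 14217 genes. Gdf15, which was not called against untreated tumours, was 1.04 ± 0.35 lower after BB than after MRT (interval -1.74 to -0.33, adjusted p = 0.957), with BB tumours between 6.23 and 6.75 and MRT tumours between 6.97 and 8.15. Of the called genes whose interval left out 0, Pik3r1 ran from -1.61 to -0.40, Glg1 from -1.13 to -0.17 and Fam25a, a small gene of unsettled role, from 0.15 to 1.65, all with an adjusted p of 0.957.

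The broad beam response was set against that at 6 h by an interaction of treatment and time, in which BB arrays stand on both sides. BB tumours at 6 h (6 rats) were higher than untreated tumours at 6 h (5 rats) in 1470 genes, 10.3% of those tested, and lower in 1008, 7.09%. The difference between 48 h and 6 h was called for 1067 genes, 7.51%, of which 350 effects were higher and 717 lower at 48 h. The p53 targets held called rises at both times: 13 of 29 rose at 6 h (median 0.37) and 6 at 48 h. From the earliest to the latest time (6 h, 48 h, 8 d) Cdkn1a stood at 2.03 ± 0.22, 2.14 ± 0.25 and 0.86 ± 0.25, Aen at 1.26 ± 0.14, 0.96 ± 0.16 and 0.58 ± 0.16, and Mdm2 at 1.07 ± 0.13, 0.70 ± 0.16 and 0.02 ± 0.16. For these 3 genes the change from 6 h to 48 h did not pass (interaction adjusted p = 0.894, 0.392 and 0.26). Fas was higher at 6 h (1.67 ± 0.22) than at 48 h (0.61 ± 0.26), an interaction of -1.06 ± 0.35 (adjusted p = 0.048), which was lost in 11 of 13 fits without an array (adjusted p of at most 0.105, without BB rat 53 at 48 h). Each of the 13 fits left out 1 untreated tumour at 6 h or 48 h or 1 BB tumour at 48 h. None left out a BB tumour at 6 h, so dependence on those 6 arrays was not tested.

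Of the 27 mitosis genes 6 fell at 6 h (median -0.58) and 0 at 48 h, and the time interaction was called for 3, all higher at 48 h. Plk1, a kinase of mitotic entry, was at -1.41 ± 0.34 at 6 h and 0.52 ± 0.39 at 48 h, an interaction of 1.93 ± 0.52 (adjusted p = 0.0184) called in all 13 fits without an array (0.0484 when only the 4 groups of the contrast were fitted). Cdc20, which activates the anaphase ligase, gave 2.05 ± 0.66 (adjusted p = 0.0452) and Aurka 1.81 ± 0.56 (adjusted p = 0.0364), but these were lost in 11 and 9 of the 13 fits, with the highest adjusted p (0.0915 and 0.0844) without untreated rat 17 at 48 h. Ccne2, a cyclin of replication entry, moved the other way, from 0.91 ± 0.27 at 6 h to -0.64 ± 0.31 at 48 h (interaction -1.54 ± 0.41, adjusted p = 0.0183), called in all 13 fits but not when only the 4 groups were fitted (adjusted p = 0.069).

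Of the late changes, the fall of Cyp51 was not seen at 6 h (0.14 ± 0.14; interaction -0.93 ± 0.21, adjusted p = 0.00868, called in all 13 fits), and its difference at 8 d was 0.19 ± 0.16. The falls of C10h5orf47 (interaction -1.25 ± 0.20, adjusted p = 0.000792) and of H19 (-1.02 ± 0.30, adjusted p = 0.0311, lost in 6 of 13 fits, at most 0.0755 without untreated rat 16 at 48 h) also came after 6 h. Among macrophage genes Cd68 was at -0.20 ± 0.38, 1.67 ± 0.45 and 1.23 ± 0.45 at these times, and its interaction of 1.88 ± 0.59 (adjusted p = 0.0391) was lost in 8 of 13 fits (at most 0.0915, without untreated rat 5 at 6 h). Ccl2 stood at 2.58 ± 0.40, 1.66 ± 0.47 and 1.48 ± 0.47, and its interaction did not pass (adjusted p = 0.376). At all 3 times 11 genes were called in 1 direction: Aen, Cdkn1a, Mgmt, Tlr8, Ccl2, Clec4a3, Bcl2a1, Fgl2, Slc31a2 and Chac1, which rose, and Ppp2r5c, a phosphatase subunit, which fell (listed after their values were seen). They share no control arrays across times, and at 8 d 8.36% of all genes tested were called higher and 14.5% lower. The interaction count was 467 with quantile normalization, and between 576 (without untreated rat 3 at 6 h) and 1120 without 1 array, where no BB array at 6 h was left out. With arrays shifted to a common median 166 genes were higher and 976 lower, and the median over all genes moved from 0.0192 to -0.0916.

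**Figure D4:**
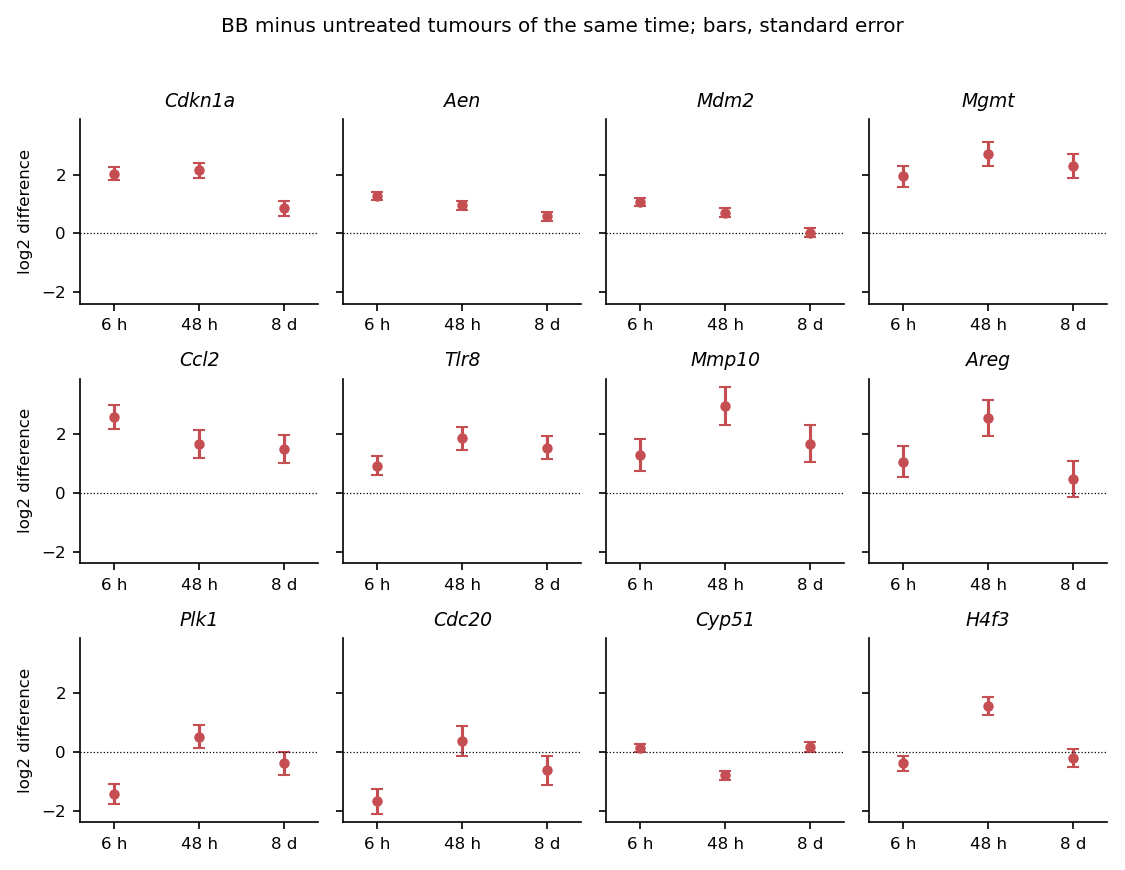
Log2 difference of BB minus untreated tumours, with its standard error, at 6 h, 48 h and 8 d for 12 genes. Cdkn1a and Aen are above 0 at all 3 times, Plk1 and Cdc20 are lowest at 6 h, and Cyp51 is below 0 at 48 h only.

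The contralateral hemisphere, in which BB rats (3) and untreated rats (4) were compared at the same time, gives the values of brain away from the tumour. There 3069 genes were called, 21.6% of those tested, and the tissue interaction was called for 811 genes, 5.7%, of which 634 were higher and 177 lower in tumour. Of the called tumour genes, 21 of 195 rises and 73 of 174 falls were called in the same direction contralaterally. Another 19 rises and 1 fall were called in the opposite direction. Over all 14217 genes 918 were called higher and 2151 lower contralaterally. Of the 29 p53 targets 6 were called higher in tumour, and 11 higher and 1 lower contralaterally. Cdkn1a was at 2.14 ± 0.25 in tumour and 3.13 ± 0.26 contralaterally (interaction -0.98 ± 0.37, adjusted p = 0.0834), Aen at 0.96 in each (interaction 0.00 ± 0.22), and the repair gene Mgmt at 2.71 ± 0.41 and 2.59 ± 0.18 (interaction 0.13 ± 0.47). Of the 11 genes above, Aen, Cdkn1a, Clec4a3, Mgmt and Tlr8 were also called higher contralaterally, as were 6.46% of all genes tested.

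Mmp10 and Areg rose in tumour and had a difference of -0.44 ± 0.33 and -0.35 ± 0.14 contralaterally, where neither passed. The interactions were 3.40 ± 0.75 (adjusted p = 0.00617) and 2.89 ± 0.67 (adjusted p = 0.00772), and both were called in every fit without an array. Fam25a (3.04 ± 0.49), Oasl (2.16 ± 0.50) and Il10 (1.88 ± 0.44) were likewise called higher in tumour in every such fit, but Il10 was not called when only the 4 groups of this contrast were fitted (adjusted p = 0.135). Plau (1.72 ± 0.43, adjusted p = 0.0123; 0.11 without untreated contralateral rat 18) and Cd8a (2.50 ± 0.60, adjusted p = 0.0095; 0.0545 without the same array) were lost in 1 fit each. Pik3r1 gave -2.38 ± 0.46 (adjusted p = 0.00155), and the synaptic vesicle protein gene Syt1, which differed by -1.56 ± 0.47 in tumour and 1.66 ± 0.43 contralaterally, gave -3.22 ± 0.65 (adjusted p = 0.00296). These too were called in every fit without an array, while with only the 4 groups Pik3r1 had an adjusted p of 0.0541. Of the macrophage markers only Ms4a7 passed (2.06 ± 0.65, adjusted p = 0.0437, lost in several of the fits without an array), while Lgals3 (0.43 ± 0.54), Gpnmb (0.12 ± 0.52) and Cd14 (0.29 ± 0.55) did not. The interaction count ranged from 88 (without untreated contralateral rat 18) to 1955 (without untreated contralateral rat 17). It was 1591 and 1921 without untreated contralateral rats 15 and 16, 302, 352 and 338 without BB contralateral rats 50, 51 and 52, and 344 and 354 without untreated tumour rat 17 and BB tumour rat 51. With arrays shifted to a common median it was 225 higher and 115 lower. Tumour and contralateral samples of a rat are not independent, and with the rat as a replicate block 1772 genes were called.

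**Figure D5:**
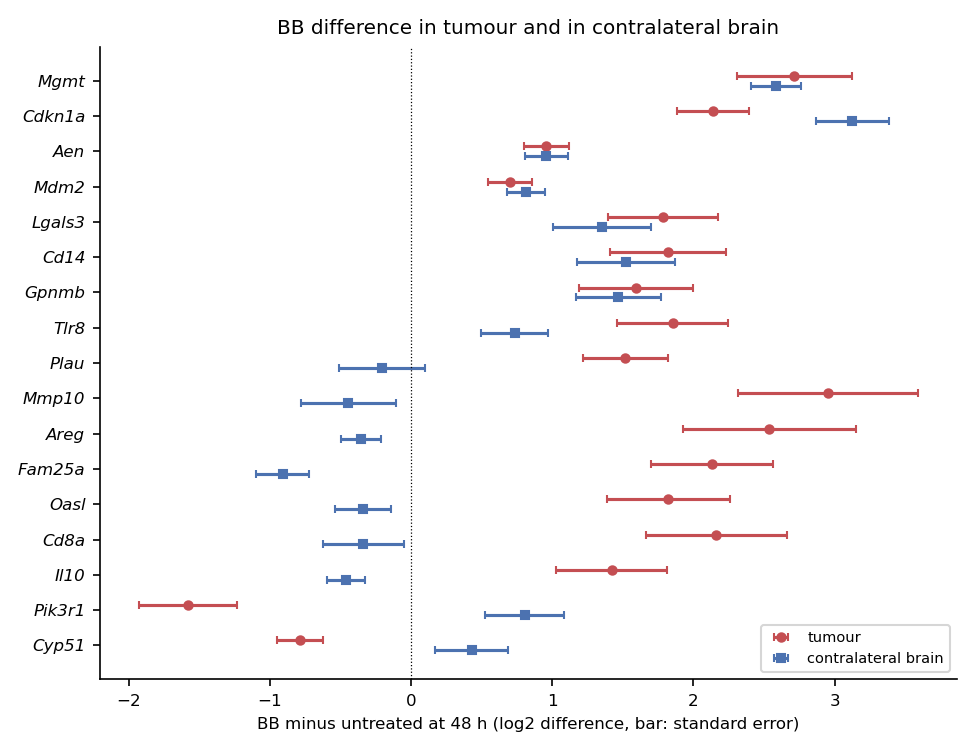
Log2 difference of BB minus untreated at 48 h with its standard error in tumour (circles) and contralateral brain (squares) for 17 genes. Both symbols of Cdkn1a, Aen and Mgmt lie above 0, while those of Mmp10 and Areg are above 0 in tumour only.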

How the data were processed

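Total RNA was isolated with the mirVana kit and labelled with a 3′ IVT kit, per the labels' protocols. The broad beam dose was 17.4 Gy, per the labels' protocols. Affymetrix Expression Console was used with MAS5 and RMA for untreated and MRT samples and with RMA alone for BB samples, per the submitters' processing notes, which name no versions. Each deposited value is a probe set's intensity after the authors' normalization, a whole number between 7 and 27837; array medians lay between 117 and 165, and log2 was taken here. Rounding makes steps at low intensity, and values below a probe set's background have little meaning. The number of arrays, 4 a group, limits the precision.

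The table holds 31099 probe sets. Left out were 57 controls, 436 that name several genes and 9780 that name no gene, and 20826 gave 14217 genes, each represented by its probe set brightest on average over all arrays; 4525 genes had several. Group means over the 59 tumour arrays, or all 115 for the tissue interaction, were fitted with limma 3.58.1 in R 4.3.3, with an intensity trend in the empirical Bayes variances and Benjamini-Hochberg adjustment over all genes. Values of single arrays were compared by exact permutation. The fit was tested on simulated data. Further software was Python 3.11.15 with numpy 2.4.6, scipy 1.17.1, pandas 2.3.3 and matplotlib 3.10.9, and data.table (1.17.8) in R.

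The comparison, its 38 gene lists (777 genes, 695 measured) and the tests were chosen with earlier results of these data known, so list counts are descriptions. The rule for named genes took, from called genes with no overlap between groups, the 12 largest rises and 12 largest falls, up to 4 called members of each list (or 3 members where fewer were called), and the 6 largest rises and falls of each other comparison. Any member of the p53, cholesterol synthesis, mitosis and T cell lists could be named. Genes outside the rule are said to be chosen after their values were seen. Listed p53 and sterol genes with no single-symbol probe set were not analysed here.

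The labels number the rats, and 55 rats have both tissues. In 38 of these, the departures from the group mean correlated over 0.1 between tumour and contralateral brain; the median was 0.186 within a rat and -0.0393 between rats of a group. The rat therefore pairs the tissues as the source of both samples, and a fit with the rat as a replicate block (consensus correlation 0.157) was an alternative. Other alternatives changed the normalization, an offset, the genes kept, the probe set of a gene, the variance model, weights for arrays, covariates, and which groups or arrays entered the fit.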

Additional observations from a re-analysis of the deposited data

Results flagged for a closer look

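Of 126 groups of 4 arrays examined, 6 held a value far from the other 3, and chance alone marks about 1 in 20. Among BB tumours, rat 53 was low for Cd8a (6.00) and high for Bmp4 (6.17), rat 52 was high for Lgals3 (12.89) and Gpnmb (13.03), and rat 50 was low for the mean of the p53 targets (8.76). Among untreated tumours, rat 15 was high for the histone gene Hist4h4 (7.52).

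Of the genes named here, 57 called against untreated tumours at 48 h were examined for the interactions of time and of tissue. The 48 h tumour difference that picked these genes enters both interactions, so the counts are descriptions. The BB effect differed between 48 h and 6 h in 16 of these 57 genes, against 7.51% of all genes tested. It was more positive at 48 h for H4f3 (1.94), Cd68 (1.88), Mrc1 (1.75), Folr2 (1.75), H4cl1 (1.19), Herpud1 (0.80) and Nqo1 (0.73). It was more negative for Pik3r1 (-1.61), Sh3bgrl1 (-1.35), C10h5orf47 (-1.25), Notch3 (-1.05), H19 (-1.02), LOC102549828 (-1.02), Ifit1 (-0.98), Cyp51 (-0.93) and Nos2 (-0.71). Mrc1 was called in 3 of 13 fits without an array (adjusted p of at most 0.0941, without untreated rat 5 at 6 h).

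The BB effect at 48 h differed between tumour and contralateral brain in 27 of the same 57 genes, against 5.7% of all genes tested. It was higher in tumour for Mmp10 (3.40), Fam25a (3.04), Areg (2.89), Cst7 (2.78), Cd8a (2.50), Oasl (2.16), Ms4a7 (2.06), Trib3 (2.02), Il10 (1.88), Nupr1 (1.85), Plau (1.72), Hist4h4 (1.47), Polg2 (1.37), H4cl1 (1.19), H4f3 (1.14), Il1rap (1.13), Nhej1 (0.89), Nqo1 (0.78), Alkbh3 (0.76) and Rchy1 (0.53). It was lower in tumour for Pik3r1 (-2.38), Akap6 (-1.62), Sh3bgrl1 (-1.27), Cyp51 (-1.22), Glg1 (-1.19), Slc6a7 (-1.03) and LOC102549828 (-0.81). Without untreated contralateral rat 18 the Cyp51 interaction had an adjusted p of 0.151.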

How the results depend on the processing

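The 369 calls of BB against untreated tumours became 206 with quantile normalization, 189 with arrays shifted to a common median, 153 without the dimmest 30% of genes, 128 with the Gapdh covariate, 1115 over all probe sets and 2392 with array weights, whose estimation had not fully converged, and 75 to 297 without 1 array. The 369 genes kept their direction in every alternative fit that held them, except that 364 did with the median of the probe sets. BB against MRT gave 43 calls with array weights and 0 in every other fit. The time interaction gave 467 with quantile normalization, 221 without the dimmest genes, 3067 over all probe sets, 1926 with neuron markers as a covariate, 158 when only its 4 groups were fitted and 576 to 1120 without 1 array. No fit of the time interaction left out a single BB array at 6 h. The tissue interaction gave 340 with a common median, 1794 over all probe sets, 1625 with array weights, 463 with the Gapdh covariate, 36 when only its groups were fitted, 88 to 1955 without 1 array and, pairing the tissues of a rat, 1772 with the rat as a replicate block. The block was not applicable to the comparisons within tumour, where each rat gave 1 array. The cause of these shifts was not tested. The fit of only the 48 h groups, with 326 calls, was added after seeing the data.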

Other observations

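Stress genes that belong to no list above were also higher, and all genes in this paragraph were chosen after their values were seen. Trib3, a pseudokinase of the unfolded protein response, was at 8.29, 7.67, 7.54 and 7.58 in untreated rats 15 to 18 and 9.50, 9.77, 9.57 and 8.95 in BB rats 50 to 53 (1.67 ± 0.49, adjusted p = 0.0482), and was called in 1 of the 8 fits without an array. Nupr1, a chromatin-associated stress protein, rose by 1.61 ± 0.37 (adjusted p = 0.013; 0.0602 at most, lost without untreated rats 16 or 17). Ddit4l, an inhibitor of mTOR signalling, was at 7.90, 7.72, 7.11 and 7.74 and rose to 8.65, 8.68, 8.60 and 8.33 (0.95 ± 0.19, adjusted p = 0.00533), and it was called in all 8 fits. Its groups did not overlap. Chac1, which degrades glutathione (0.58 ± 0.16, adjusted p = 0.0314), and Herpud1, of protein degradation at the endoplasmic reticulum (0.61 ± 0.17, adjusted p = 0.0369), were called in 1 of 8 fits each.

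Probe sets for 3 genes of histone H4 rose as well, again chosen after their values were seen. H4f3 was at 6.02, 6.23, 5.09 and 5.64 in untreated and 7.48, 7.62, 7.26 and 6.88 in BB tumours (1.57 ± 0.31, adjusted p = 0.00451). Hist4h4 rose by 1.73 ± 0.36 (adjusted p = 0.00605) and H4cl1 by 1.17 ± 0.25 (adjusted p = 0.0077), and no group overlapped for any of them. All 3 were called in each of the 8 fits without an array, and Hist4h4 had an adjusted p of 0.0535 with the Gapdh covariate. Histone H4 genes are near-identical copies, so their probe sets may not be told apart. At 6 h H4f3 stood at -0.38 ± 0.26 and at 8 d at -0.21 ± 0.31. Il1rap, a co-receptor of interleukin 1 chosen in the same way, was at 6.71, 6.58, 6.32 and 6.46 and rose to 7.64, 8.04, 7.78 and 7.39 (1.20 ± 0.25, adjusted p = 0.00589). Its other probe set, at a mean of 5.78 in untreated tumours, stood at 0.01 ± 0.15 (adjusted p = 0.978 over all probe sets), so its 2 probe sets disagree.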
